A study of Homo sapiens with 6 samples.

Results

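Sphingosine-1-phosphate (S1P) is a lipid made inside cells, exported and read by its own receptors, and the 10 genes described here are those receptors and the enzymes and exporters that set the supply of S1P. They were taken by name from 62252 genes: the receptors *S1PR1* to *S1PR5*, the kinases *SPHK1* and *SPHK2*, the lyase *SGPL1*, and the exporters *SPNS2* and *MFSD2B*. Transcript levels came from mRNAseq of K562, an erythroid leukemia cell line, in which doxycycline (Dox) switches on Flag-tagged PCBP1, an RNA-binding protein with KH domains that prefers cytosine-rich RNA and also carries iron. There were 3 −Dox libraries (control) and 3 +Dox libraries (PCBP1 overexpression, PCBP1 OE). All 6 libraries came from the same genotype: a K562 flox line derived from a single clone, into whose AAVS1 safe harbor site the tet-inducible Flag-PCBP1 cassette was exchanged, followed by puromycin selection of a polyclonal population. Dox itself therefore differed between the groups along with Flag-PCBP1, and their effects cannot be told apart here; no library of cells given Dox without the transgene was used here, and the dose and duration of Dox for these libraries were not given in the sources used here. The estimated counts summed to 84177316, 80104627 and 74766040 in the −Dox libraries and to 70905656, 82263502 and 82449808 in the +Dox libraries. Nothing states whether the libraries of a group came from separate cultures, so the p-values measure the spread between these libraries, which may be technical.

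S1P is formed when sphingosine, released from ceramide, is phosphorylated by a sphingosine kinase. It is destroyed irreversibly by S1P lyase inside the cell, or carried out across the membrane, where it acts on G protein-coupled receptors. Red blood cells and their precursors are a main source of S1P in plasma and export it through MFSD2B, whereas SPNS2 is known as the exporter of endothelial cells. S1PR1 is best known for guiding lymphocytes out of lymphoid organs and for keeping the endothelium tight.

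In +Dox cells, *MFSD2B* was 1.85-fold higher and *SGPL1* was 1.25-fold lower, and both changes passed the test across all genes. *S1PR1* was the member with the lowest +Dox level relative to −Dox, 4.6-fold lower. The set was chosen by the log2 fold change of *S1PR1*, already known to be among the largest decreases in these libraries, and the other 9 genes were added by function. The values of *S1PR1* are therefore a description with no test. The remaining members that could be tested did not pass. *PCBP1* itself was at 156, 158 and 163 TPM (a transcript level corrected for length and depth) in the −Dox libraries and at 596, 582 and 600 TPM in the +Dox libraries. Its log2 fold change was 1.94 (SE 0.0551, edgeR adjusted p = 5.22e-10), in the direction of the labels; reads of the transgene and of the endogenous gene were not separated.

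The start regions of *S1PR1* and of the 2 members that passed the test are shown, since the most abundant transcript of each over the 6 libraries began there. Each run is the RefSeq promoter window on GRCh38.p14, 250 bases before to 50 bases after the start, on the plus strand: chr1:101236769-101237068 for *S1PR1*, chr2:24009835-24010134 for *MFSD2B* and chr10:70815698-70815997 for *SGPL1*. Capitals mark GATAA, the core read by GATA factors, and CACCC, the core read by KLF factors, on either strand, so that CACCC on the minus strand appears as GGGTG.
S1PR1: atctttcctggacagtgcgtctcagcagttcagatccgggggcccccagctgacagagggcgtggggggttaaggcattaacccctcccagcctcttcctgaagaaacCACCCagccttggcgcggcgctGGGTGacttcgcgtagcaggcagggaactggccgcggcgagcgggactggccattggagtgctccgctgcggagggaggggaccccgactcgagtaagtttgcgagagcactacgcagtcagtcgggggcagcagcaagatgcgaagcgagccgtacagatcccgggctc
MFSD2B: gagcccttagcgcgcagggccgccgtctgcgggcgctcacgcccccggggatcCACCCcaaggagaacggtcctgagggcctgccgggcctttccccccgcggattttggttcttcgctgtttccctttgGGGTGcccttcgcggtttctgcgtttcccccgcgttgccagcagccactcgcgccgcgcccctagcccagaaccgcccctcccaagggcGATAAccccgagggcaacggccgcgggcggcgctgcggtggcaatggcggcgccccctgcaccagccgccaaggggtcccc
SGPL1: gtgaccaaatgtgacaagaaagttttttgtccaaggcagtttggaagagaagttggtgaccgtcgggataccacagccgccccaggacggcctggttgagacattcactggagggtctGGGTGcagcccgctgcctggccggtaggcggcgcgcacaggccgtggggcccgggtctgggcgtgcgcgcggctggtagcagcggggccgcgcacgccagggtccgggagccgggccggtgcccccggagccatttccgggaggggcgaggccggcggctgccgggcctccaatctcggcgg
The annotated starts of S1PR1-201, MFSD2B-201 and SGPL1-202 in GENCODE 44, at 101237019, 24010085 and 70815948, coincide with these RefSeq starts. The *MFSD2B* window held 1 GATAA, whose first base lay at −31 from the start, and 2 CACCC matches, whereas the *S1PR1* window held 2 CACCC matches and no GATAA and the *SGPL1* window 1 CACCC match and no GATAA. Over 35116 RefSeq promoter windows, 22.7% held GATAA and 59.9% held CACCC. Of the 14 windows of the 9 members with an entry, 3 held GATAA and 11 held CACCC, 1 held ACGTG (HIF; 21.4% of all windows), 2 held TGANTCA (AP-1; 7.71%) and 1 held TTCNNNGAA (STAT; 7.66%). These letters are a description of the windows and were not tied to any factor.

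**Figure D1:**
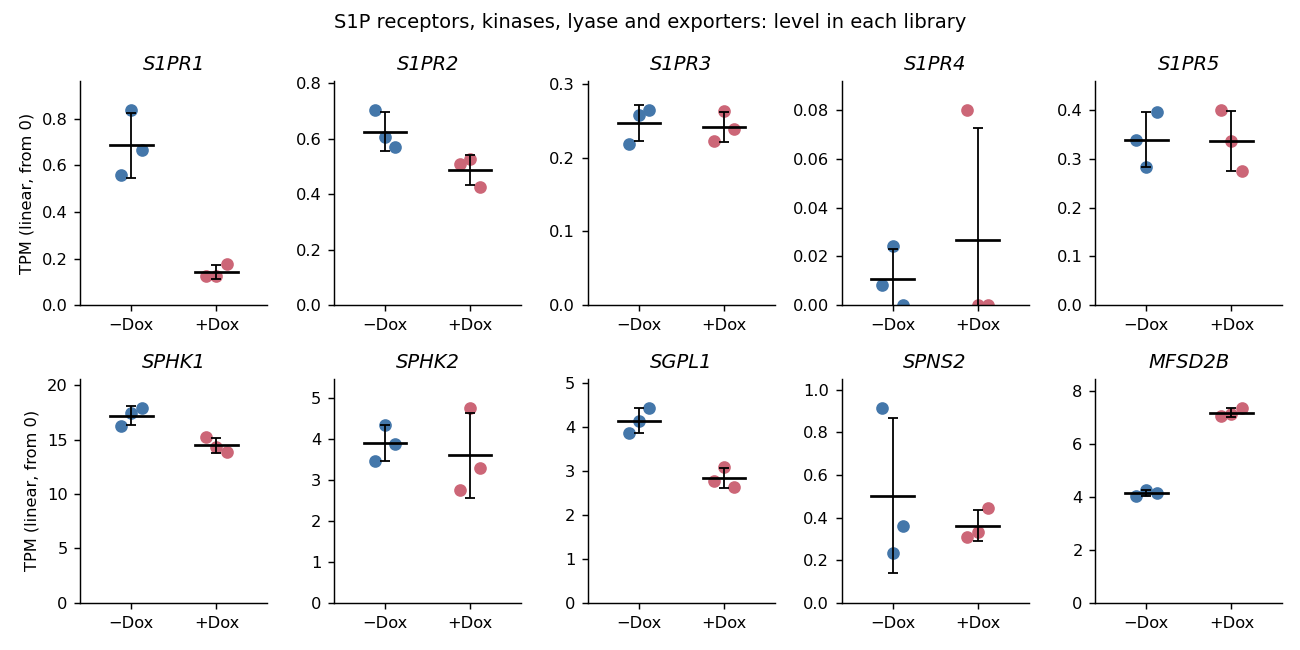
TPM of each of the 10 genes in the 3 −Dox (blue) and 3 +Dox (red) libraries, on linear axes from 0 that differ between panels. Points are libraries and the line and bars are the mean and SD: *S1PR1*, *S1PR2*, *SPHK1* and *SGPL1* lie lower and *MFSD2B* higher in +Dox with no overlap in TPM, from 4.04 to 4.25 TPM against 7.03 to 7.35 TPM for *MFSD2B*.

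Of the exporters, *MFSD2B* carried nearly all coding reads. *MFSD2B* (ENSG00000205639.12, GRCh38 chr2:24010081-24063321, plus strand) codes for the S1P exporter of erythroid cells and platelets. It was at 4.04, 4.25 and 4.14 TPM in the −Dox libraries and at 7.03, 7.12 and 7.35 TPM in the +Dox libraries, from 624, 610 and 552 estimated counts against 1012, 1103 and 1173. Every +Dox library was higher than every −Dox library; in bulk RNA, more cells of a state and more RNA per cell cannot be told apart. In CPM (counts scaled to library size with TMM, edgeR's correction for library composition, and not to length), *MFSD2B* rose from 7.53 ± 0.26 to 13.9 ± 0.763 (SD, n = 3 each), a log2 fold change of 0.89 (SE 0.0802, edgeR adjusted p = 1.55e-05). It had the 630th highest log2 fold change of the 21045 genes tested, and its adjusted p stayed under 0.05 in 14 of 14 alternative analyses.

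The reads of *MFSD2B* were spread over several transcripts. The canonical coding transcript MFSD2B-201 held 31.7% ± 4.44 of the gene's TPM in −Dox and 34.4% ± 5.25 in +Dox (SD, n = 3 each), and the retained-intron transcript MFSD2B-205 held 24.7% ± 7.01 and 25.2% ± 0.272. MFSD2B-203, annotated for nonsense-mediated decay, held 22.8% ± 10.3 and 20.2% ± 2.04, and 68.8% of its bases lie in exons of *FKBP1B*, the next gene on the same strand. No share of the gene's transcripts passed the test, which had little power for moderate changes. The coding transcripts alone, none of which overlaps *FKBP1B*, were at 1.54, 1.71 and 1.45 TPM in −Dox and at 3.04, 2.76 and 2.97 TPM in +Dox, again without overlap. *FKBP1B*, which codes for a calcium channel-binding immunophilin, had a log2 fold change of 0.50 (SE 0.169, edgeR adjusted p = 0.0612).

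*SPNS2* (ENSG00000183018.9, chr17:4498881-4539035, plus strand), the exporter best known from endothelium, was nearly without coding reads. Its counts were 68, 16 and 31 in −Dox and 20, 34 and 48 in +Dox, and the groups overlapped. Of these, the coding transcripts received 0, 0 and 0 counts in −Dox and 1, 2 and 0 in +Dox. The rest fell on retained-intron transcripts at the 3′ part of the gene, among them SPNS2-202, SPNS2-203 and SPNS2-207. Exons of *MYBBP1A*, a nucleolar protein gene on the opposite strand, cover 139 bases of SPNS2-203, and whether the counting used strand is not given in the sources used here, so reads of these 2 genes in that stretch cannot be told apart. *MYBBP1A* itself fell, with a log2 fold change of −0.50 (SE 0.0584, edgeR adjusted p = 0.000115). For *SPNS2* the log2 fold change was −0.16 (SE 0.483, edgeR adjusted p = 0.876), and its sign turned with the library left out, from −0.52 without −Dox replicate 2 to 0.46 without −Dox replicate 1.

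*SGPL1* (ENSG00000166224.18, chr10:70815905-70895816, plus strand) codes for S1P lyase, the enzyme that ends S1P by cleaving it. It was at 3.86, 4.14 and 4.43 TPM in −Dox and at 2.77, 3.08 and 2.64 TPM in +Dox, and at 16.7, 15.2 and 16.4 CPM against 12.4, 13.5 and 12.8 CPM. All +Dox libraries lay below all −Dox libraries on both scales. *SGPL1* fell by 0.32 on the log2 scale (SE 0.0722, edgeR adjusted p = 0.0093), and the adjusted p was under 0.05 in 13 of 14 alternatives; it was 0.0534 with limma on log2(TPM + 1). The size of the decrease depended on the scale: it ranged from −0.54 with limma on log2(TPM + 0.1) to −0.29 without −Dox replicate 1. The coding transcripts were at 2.92, 2.80 and 2.88 TPM in −Dox and at 2.09, 2.76 and 1.88 TPM in +Dox, which leaves the groups apart by a narrow margin. SGPL1-202, the canonical transcript, held 53.1% ± 9.09 of the gene's TPM in −Dox and 60.7% ± 5.29 in +Dox (SD, n = 3 each). The long noncoding gene ENSG00000289738 shares 815 bases of exon with SGPL1-202 and had 0 counts in every library.

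*SPHK1* was the more abundant of the kinases, and neither kinase passed the test. *SPHK1* (ENSG00000176170.14, chr17:76376584-76387860, plus strand), the mostly cytosolic kinase that moves to the plasma membrane upon stimulation, was at 16.2, 17.4 and 17.9 TPM in −Dox and at 15.2, 14.3 and 13.9 TPM in +Dox. In TPM the groups were apart, but in CPM (27.9, 33.1 and 32.6 against 28.8, 25.1 and 25.5) they overlapped. Its log2 fold change of −0.24 (SE 0.0766, edgeR adjusted p = 0.0528) just missed the limit of 0.05. Over the 14 alternatives the adjusted p ranged from 0.00463 to 0.186, and 6 of them were under 0.05, DESeq2 (0.0182) among them. *SPHK2* (ENSG00000063176.16, chr19:48619291-48630717, plus strand), the kinase also found in the nucleus and mitochondria, was at 3.47, 4.33 and 3.88 TPM in −Dox and at 2.74, 4.75 and 3.29 TPM in +Dox. The groups overlapped, and the log2 fold change was −0.07 (SE 0.11, edgeR adjusted p = 0.737). Genes on the opposite strand overlap both kinases, and with the strand setting unknown their reads in the shared bases cannot be told apart. Of the exon bases of *SPHK2*, 678 lie in exons of the long noncoding gene ENSG00000268093 (log2 fold change −0.28, SE 0.701, edgeR adjusted p = 0.844) and 661 in exons of *DBP*, a circadian transcription factor (0.18, SE 0.186, edgeR adjusted p = 0.601). *PRPSAP1*, which shares 59 bases with *SPHK1*, was higher (0.26, SE 0.0568, edgeR adjusted p = 0.00723).

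The kinase genes also differed in how their transcripts divided. SPHK1-210 held 53.4% ± 4.34 of *SPHK1* TPM in −Dox and 49.7% ± 3.37 in +Dox, and SPHK1-201 held 19.6% ± 2.23 and 16.1% ± 1.14 (SD, n = 3 each). *SPHK2* had no dominant transcript: SPHK2-201 held 21.4% ± 11 and 25.2% ± 14.3, and its share varied between libraries as widely as between groups. Over all genes, 28 of 39073 transcripts (0.0717%) changed their share at an adjusted p under 0.05 (limma on log2 share ratios). Among the 21 member transcripts tested, 0 did by limma, the smallest adjusted p being 0.741. At an unadjusted limma p under 0.05 there were 0 of these 21, against 2791 of all 39073. The standard errors of their log2 share ratio changes ran from 0.167 to 0.973, so moderate changes in share could not be seen with these libraries, and a count of 0 does not show that the shares were equal.

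**Figure D2:**
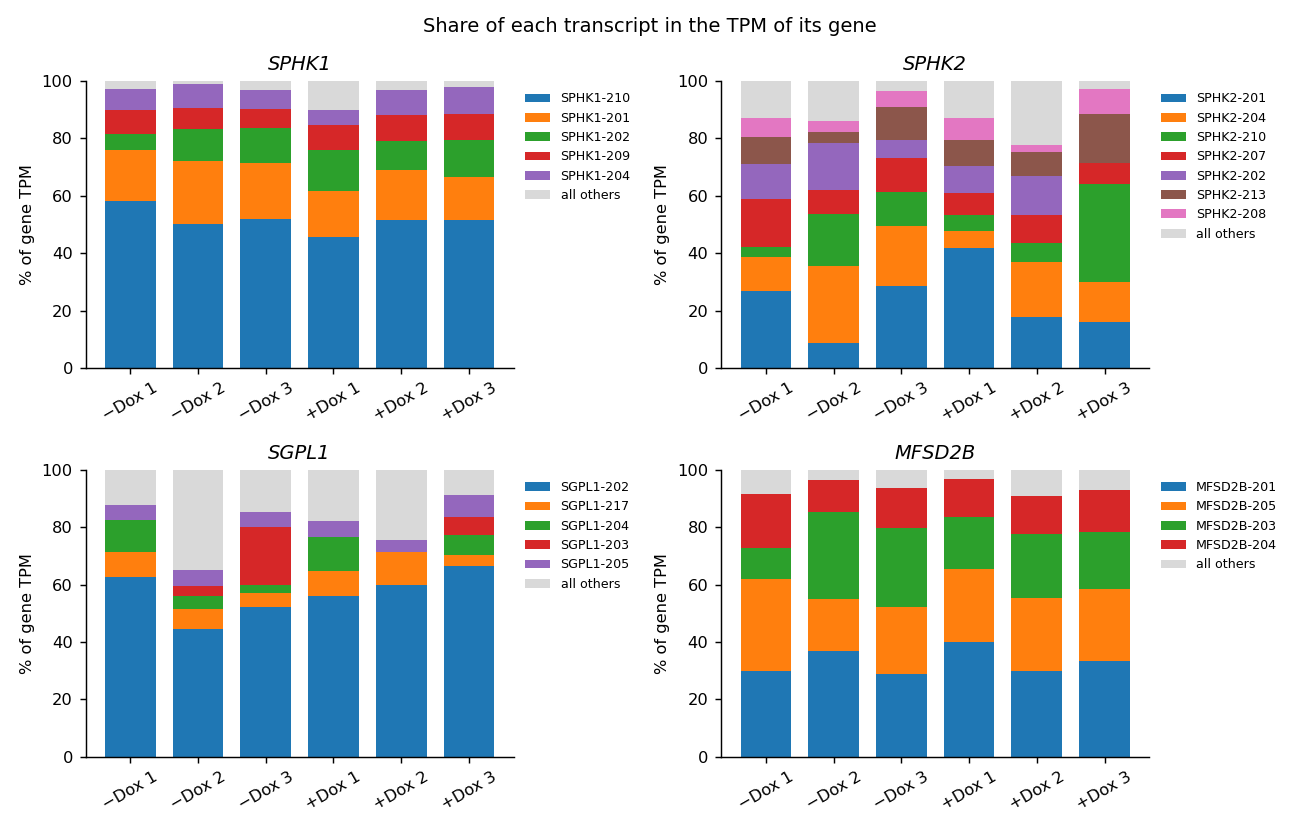
Share of each transcript (percent of the gene's TPM, linear axis from 0 to 100) in each library for *SPHK1*, *SPHK2*, *SGPL1* and *MFSD2B*; grey stands for transcripts with a mean share under 5%. The division of *SPHK1* is alike across the 6 libraries, with SPHK1-210 the largest part in each, whereas that of *SPHK2* varies between libraries of the same group.

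The receptors were all low. *S1PR1* (ENSG00000170989.10, chr1:101236865-101243713, plus strand), the Gi-coupled receptor of lymphocytes and endothelium, was at 0.559, 0.836 and 0.664 TPM in −Dox and at 0.124, 0.126 and 0.178 TPM in +Dox. These rest on 117, 171 and 134 counts in −Dox and on 23, 29 and 40 counts in +Dox, so the lowest −Dox library had more counts than all +Dox libraries together. The log2 fold change was −2.20 (SE 0.277), the 53rd lowest of the 21045 genes tested. With any 1 library left out it lay between −2.42 and −2.03, a range given as a description only, since this value chose the set. On a log2(TPM + 1) scale, where a gene under 1 TPM can move little, the log2 fold change was −0.56.
The coding transcript S1PR1-201 held 81.2% ± 6.36 of *S1PR1* TPM in −Dox (SD, n = 3). In +Dox its share was 0%, 100% and 25.4%, and S1PR1-205, a coding transcript with a different start that had no reads in −Dox, held 87.8%, 0% and 74.6%. With 23 to 40 counts per library in +Dox, and a gene mean under 1 TPM, these shares were not tested.

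*S1PR2* (ENSG00000267534.4, chr19:10221433-10231331, minus strand), which couples to G12/13 and restrains migration, was at 0.703, 0.607 and 0.569 TPM in −Dox and at 0.508, 0.527 and 0.427 TPM in +Dox. The groups did not overlap, but the log2 fold change of −0.33 (SE 0.166) did not pass (edgeR adjusted p = 0.218). *DNMT1*, a DNA methyltransferase gene on the same strand, shares 83 exon bases with *S1PR2* and did not pass either (log2 fold change −0.11, SE 0.0477, edgeR adjusted p = 0.143). *S1PR3* (ENSG00000213694.7, chr9:88990863-89005155, plus strand), which also couples to Gq, was at 0.219, 0.257 and 0.264 TPM against 0.223, 0.263 and 0.238 TPM, and its edgeR adjusted p was 0.991 (SE of the log2 fold change 0.194). *S1PR5* (ENSG00000180739.15, chr19:10512742-10517931, minus strand), known from natural killer cells and oligodendrocytes, was at 0.339, 0.283 and 0.397 TPM against 0.400, 0.336 and 0.276 TPM, with a log2 fold change of 0.01 (SE 0.277, edgeR adjusted p = 0.985). In both genes the groups overlapped throughout, and standard errors of this size leave smaller changes undetectable. *S1PR4* (ENSG00000125910.6, chr19:3172346-3180332, plus strand), a receptor of hematopoietic cells, had 1, 3 and 0 counts in −Dox and 9, 0 and 0 in +Dox and was too low to be tested.

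Summed over the 5 receptors, transcripts were at 1.91 ± 0.0917 TPM in −Dox and at 1.23 ± 0.106 TPM in +Dox (SD, n = 3 each). *S1PR1* made up 35.8% ± 5.53 of that sum in −Dox and 11.8% ± 3.6 in +Dox. Without *S1PR1* the sum was 1.22 ± 0.0503 and 1.09 ± 0.138 TPM, and the libraries of the groups then overlapped. *S1PR2* took 32.9% ± 4.79 of the sum in −Dox and 39.5% ± 2.28 in +Dox, so the receptor with the largest share differed between the groups. The level of *S1PR2* itself was not higher in +Dox, at a mean of 0.488 TPM against 0.626 TPM in −Dox. Since *S1PR1* chose the set, the lower sum and the change in shares follow from that choice and are a description. In −Dox, however, *S1PR1* and *S1PR2* overlapped in level.

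**Figure D3:**
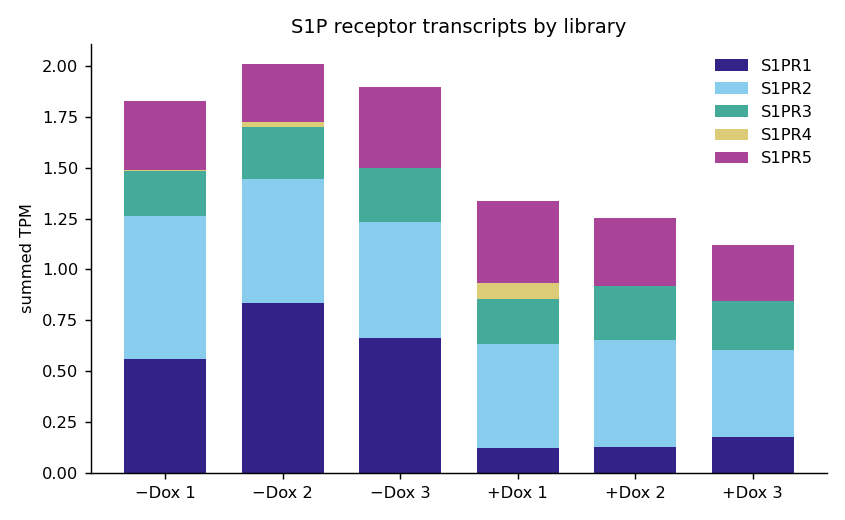
Summed TPM of the 5 S1P receptor genes in each library (linear axis from 0), stacked by gene. The −Dox libraries sum to between 1.83 and 2.01 TPM and the +Dox libraries to between 1.12 and 1.33 TPM. The *S1PR1* segment, whose change chose the set, is the part that differs most.

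Ordered by TPM in −Dox, *SPHK1* (17.2 ± 0.879) stood above all others, followed by *SGPL1* (4.15 ± 0.284), *MFSD2B* (4.14 ± 0.102) and *SPHK2* (3.89 ± 0.431), whose libraries overlapped. Below them, *S1PR1* (0.686 ± 0.139), *S1PR2* (0.626 ± 0.069), *SPNS2* (0.503 ± 0.362) and *S1PR5* (0.339 ± 0.0569) overlapped from each to the next. *S1PR3* (0.247 ± 0.0244) did not overlap with *S1PR5*, the next above it, although it did with *SPNS2*, and *S1PR4* came last. In +Dox, *MFSD2B* (7.17 ± 0.161) stood alone behind *SPHK1* (14.5 ± 0.645), above *SPHK2* (3.59 ± 1.04) and *SGPL1* (2.83 ± 0.223), which overlapped. *S1PR2* (0.488 ± 0.0528), *SPNS2* and *S1PR5* overlapped again, and *S1PR1* (0.143 ± 0.0302) stood below *S1PR3* (0.241 ± 0.0203) with no overlap. All of these are levels in TPM of whole genes, noncoding transcripts included, with SD and n = 3. Over coding transcripts alone, the place of *MFSD2B* was lower. In +Dox it (2.93 ± 0.143) then overlapped with *SPHK2* (3.11 ± 0.86). In −Dox it (1.57 ± 0.133) lay below *SGPL1* (2.87 ± 0.0628) and *SPHK2* (3.28 ± 0.618) with no overlap.
The ratio of *MFSD2B* to *SGPL1* whole-gene TPM, export against breakdown, was 1.05, 1.03 and 0.934 in −Dox and 2.54, 2.31 and 2.78 in +Dox. These values depend on counting noncoding transcripts. Over coding transcripts alone, mean TPM was 1.57 for *MFSD2B* and 2.87 for *SGPL1* in −Dox, and 2.93 and 2.24 in +Dox. The near parity in −Dox thus held for whole genes only. The ratio of *SPHK1* to *SGPL1* whole-gene TPM, synthesis against breakdown, was 4.15 ± 0.0896 and 5.14 ± 0.426 (SD, n = 3 each). It too depended on noncoding transcripts. Coding transcripts of *SPHK1* were at 13.7, 14.7 and 15.5 TPM in −Dox and at 13.1, 11.8 and 11.3 TPM in +Dox. Those of *SGPL1* were at 2.92, 2.80 and 2.88 TPM against 2.09, 2.76 and 1.88 TPM. The ratio over coding transcripts overlapped between the groups. These ratios concern transcripts, and neither S1P nor protein was measured in these libraries.

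Counted together, 9 of the 10 genes had a mean count above 10 and entered the test. Leaving out *S1PR1*, 1 of the other 8 was higher (*MFSD2B*) and 1 lower (*SGPL1*). Over all 21045 genes tested, 8.16% were higher and 7.68% lower at an adjusted p under 0.05, and 1.46% passed that limit with an absolute log2 fold change above 1, and *S1PR1* was the only member with a log2 fold change of that size. The libraries of the groups did not overlap in CPM for 3 of these 8 (*S1PR2*, *SGPL1* and *MFSD2B*), or 37.5%, against 33.2% of all genes. The median log2 fold change of the 8 was −0.12, against 0.0061 for all genes. As the members were chosen with results known, these counts are a description.

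**Figure D4:**
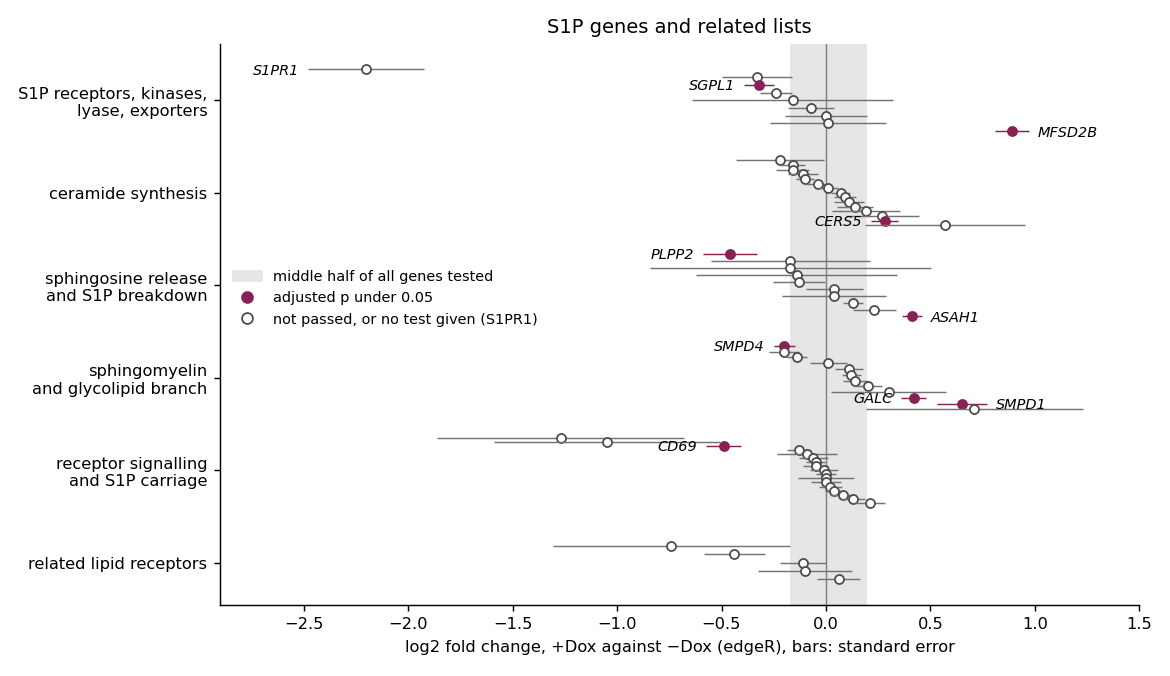
Log2 fold change, +Dox against −Dox, of the members tested (top row) and of the genes tested in each related list, with standard errors; filled points had an edgeR adjusted p under 0.05, *S1PR1* is shown without a test, and the grey band spans the quartiles of all genes (−0.17 to 0.19). *S1PR1* at −2.20 and *MFSD2B* at 0.89 lie farthest from 0 among the members.

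The wider pathway was taken from 5 lists of 69 genes, of which 59 were tested. In all, 4 were higher and 3 lower, which is 6.78% and 5.08% of those tested, with a median log2 fold change of 0.004. Among 15 tested genes of ceramide synthesis, 1 was higher, *CERS5*, a ceramide synthase (log2 fold change 0.28, SE 0.0642, edgeR adjusted p = 0.01), and none was lower. This call was lost once transcript length was taken into account (adjusted p = 0.52), where the log2 fold change was 0.1. Among 10 genes that release sphingosine or break S1P down, *ASAH1*, the acid ceramidase of lysosomes that frees sphingosine, was higher at 115, 119 and 119 TPM against 89.5, 97.5 and 95.4 TPM (log2 fold change 0.41, SE 0.0471, edgeR adjusted p = 0.000105). *PLPP2*, a lipid phosphate phosphatase, was lower (log2 fold change −0.46, SE 0.128, edgeR adjusted p = 0.0293), a call lost in 5 of 14 alternatives, among them leaving out either −Dox library 2 (0.119) or +Dox library 3 (0.0882). The lyase itself, *SGPL1*, is counted among the members only.

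Among 12 genes of the sphingomyelin and glycolipid branch, 2 were higher and 1 lower. *GALC*, the lysosomal galactosylceramidase, was higher (log2 fold change 0.42, SE 0.0593, edgeR adjusted p = 0.000484), as was *SMPD1*, the acid sphingomyelinase (log2 fold change 0.65, SE 0.119, edgeR adjusted p = 0.00273), whose TPM groups overlapped and whose call was lost in 3 of 14 alternatives (adjusted p up to 0.225). *SMPD4*, a neutral sphingomyelinase, was lower by a small amount (log2 fold change −0.20, SE 0.0499, edgeR adjusted p = 0.0149), and its adjusted p reached 0.0659 among the 5 alternatives that lost the call. *ASAH1*, *GALC* and *SMPD1* all code for lysosomal enzymes, which was noticed after their values were seen and was not tested as a group.
Of 17 genes of receptor signalling and S1P carriage, 1 was lower and none higher. *CD69*, a membrane protein known to bind S1PR1 and draw it into the cell, was at 61.4, 44.2 and 54.8 TPM in −Dox and at 35.7, 39.2 and 39.9 TPM in +Dox (log2 fold change −0.49, SE 0.0842, edgeR adjusted p = 0.00177). Its call was lost in 1 of 14 alternatives, limma on log2(TPM + 1), where the adjusted p was 0.0536. *KLF2*, a transcription factor known to drive *S1PR1* in lymphocytes and chosen here after its values were seen, had only 8 to 31 counts per library (log2 fold change −1.05, SE 0.541, edgeR adjusted p = 0.229). It did not pass, and a link to *S1PR1* was not tested. *ABCA1*, on the same list, had a lower log2 fold change and did not pass either (−1.27, SE 0.591, edgeR adjusted p = 0.178). Among 11 related lipid receptors, 5 were tested and none passed.

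Markers were read to place these cells. The 8 erythroid K562 markers summed to between 16300 and 16900 TPM per library, led by *HBG2*, a gamma globin gene. Of these, 4 were higher in +Dox, among them *HEMGN*, a nuclear protein of blood precursors (log2 fold change 0.57, SE 0.0472, edgeR adjusted p = 6.86e-06), and *TAL1*, a transcription factor of the erythroid lineage (log2 fold change 0.44, SE 0.0491, edgeR adjusted p = 8.34e-05). *TFRC*, the transferrin receptor, was lower (−0.34, SE 0.0522, edgeR adjusted p = 0.000856), and *HBG1*, *HBG2* and *GATA1* did not pass. *MFSD2B* thus moved in the direction of these 4 markers, and the part of erythroid state in its change was not tested. Endothelial markers *CDH5*, *KDR*, *VWF* and *ROBO4* had 0 to 6 counts in each library, and of the 6 on the list, which summed to 1.07 to 3.09 TPM with *PECAM1* the most abundant, 2 were tested and none passed. Of 8 lymphoid markers, 4 were tested and none passed; they summed to 36.4 to 60.3 TPM, nearly all of it *CD3D*, and *MS4A1* had 0 counts in all 6 libraries. Of 4 megakaryocyte markers, 1 (*ITGA2B*) was tested and did not pass, *PF4* had 0 counts in all 6 libraries, and the sum was 4.84 to 5.76 TPM.

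The profiles nearest to *S1PR1* and *MFSD2B* were sought among 14330 genes with a mean of at least 1 CPM, by root mean square distance between log2 CPM values, each centred on its own mean over the 6 libraries. Nearest to *S1PR1* were *PDGFB* (distance 0.205), a platelet-derived growth factor chain, *CD24* (0.257), a surface glycoprotein, *TMEM158* (0.263), *IL6* (0.283), a cytokine, and *DLGAP1-AS2* (0.308), named as an antisense gene, whose overlap with other genes was not tested. Their log2 fold changes ran from −2.20 for *IL6* to −1.70 for *TMEM158*. *PDGFB* was at 1.96, 2.21 and 2.58 CPM in −Dox and at 0.437, 0.485 and 0.801 CPM in +Dox, beside 1.38, 2.20 and 1.79 against 0.324, 0.343 and 0.493 CPM for *S1PR1*. Nearest to *MFSD2B* were *IFI6* (0.0448) and *IFITM1* (0.0468), both interferon-induced, *EPOR* (0.0478), the erythropoietin receptor, *CPQ* (0.0485), a peptidase, and *SCIN* (0.0502), which severs actin filaments. Their log2 fold changes lay between 0.82 and 0.97. Over 6 libraries in 2 groups, this likeness is a description.

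**Figure D5:**
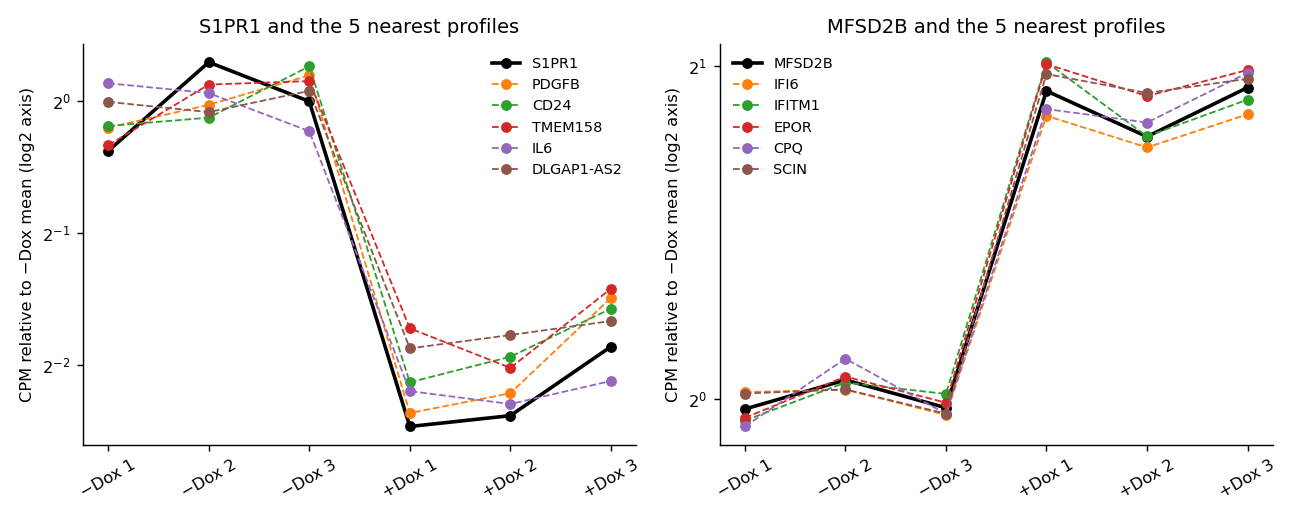
CPM of *S1PR1* (left) and *MFSD2B* (right), in black, and of the 5 genes with the nearest profiles, each divided by its own −Dox mean, on a log2 axis; lines only join the values of a gene. All 6 genes on the left lie lower, and all 6 on the right higher, in each +Dox library than in any −Dox library. The neighbours were picked for likeness over these same libraries, so this separation follows from the choice.

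PCBP1 favours runs of cytosine, so the base content of each gene's most abundant transcript was also read. Cytosine made up 25.4% of S1PR1-201, 29.9% of MFSD2B-201 and 23.0% of SGPL1-202, against a median of 23.8% over the genes tested. *SPHK2* (34.7%) and *SPNS2* (34.0%, in SPNS2-202) were the richest of the 9 members tested. Runs of at least 4 cytosines came at 3.6 per kb in S1PR1-201, 3.63 in SGPL1-202, 4.85 in S1PR3-202, 5.02 in S1PR5-202 and 6.68 in MFSD2B-201. They came at 7.69 in S1PR2-201, 8.81 in SPHK1-210, 10.6 in SPHK2-201 and 12.8 in SPNS2-202, against a median of 3.21. No binding was measured in these libraries, and whether base content goes with the changes was not tested.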

How the data were processed

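Processed transcript tables of mRNAseq from 3 −Dox and 3 +Dox libraries were used. Per the labels, Salmon 1.10.2 was among the tools of the submitters' processing notes; its index, library type and strand setting are not given in the sources used here. The authors deposited estimated counts (not whole) and TPM per transcript, with transcript lengths. Of 252045 transcripts, 251612 matched GENCODE 44 (GRCh38), and the 433 others, with 0.125% to 0.138% of the counts, were left out. Deposited estimated counts and deposited TPM were summed per gene, and counts were rounded. Effective lengths were used only in alternatives: a length offset in the fit, and CPM per kb for the order of levels.

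Genes with a mean count above 10 (21045) were fitted with edgeR 4.0.16 (R 4.3.3; TMM, factors 0.974 to 1.03; quasi-likelihood test, two-sided; Benjamini-Hochberg over all genes tested), without covariates. Log2 share ratios of 39073 transcripts in 10686 genes (TPM + 0.1; mean share 5% to 95%; gene mean at least 1 TPM) were tested with limma 3.58.1. Both tests were tested on simulated data. The gene test recovered nearly all genes given a shift larger than that of any member but *S1PR1*. Only genes above a count floor were shifted, so recovery of smaller changes and of low-count genes was not examined. The share test recovered most large shifts and few moderate ones. Exact permutation of 3 against 3 cannot go below p = 0.1 and was not used. Alternatives were DESeq2 1.42.0, RLE factors, other filters, the length offset, a replicate block, limma on TPM and leaving out each library. Promoter windows came from RefSeq; 9 of 10 members had one. The rule for named genes took up to 5 called genes per list by p, genes whose exons overlap a member, the 5 nearest profiles and member transcripts with a mean share of at least 5%; of these transcripts the text names the leading ones. The members, lists and tests were chosen with earlier results of these data known. Some items are not reported here.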

Additional observations from a re-analysis of the deposited data

How the results depend on the processing

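*MFSD2B* kept its direction and its side of the limit in 14 of 14 alternatives and *SGPL1* in 13. Counts of calls moved with the setting. In place of 3333, the genes called numbered 1883 with the transcript length offset, 1634 with limma on log2(TPM + 0.1) and 1586 with limma on log2(TPM + 1); with an absolute log2 fold change above 1, 308 became 515 with no count minimum and 58 with log2(TPM + 1). In the wider lists, in place of 7 (4 higher, 3 lower), 4 were called with the length offset, 4 with log2(TPM + 0.1) and 3 with log2(TPM + 1), of which 2, 2 and 2 were higher; the lower calls numbered 6 with DESeq2, 5 when each library had to hold 10 counts, 5 when no count minimum was set, 1 with log2(TPM + 1), and from 1 to 5 with a library left out (1 without −Dox replicate 2 or without +Dox replicate 3, 5 without −Dox replicate 1). The 28 transcripts called became 5 with a pseudocount of 1 TPM, 60 with estimated counts, and from 29 to 54 with a library left out (52 without −Dox replicate 1, 48 without −Dox replicate 3, 54 without +Dox replicate 3). The cause of these differences was not tested. Replicate numbers showed no sign of pairing the libraries: the deviations of same-numbered libraries correlated at 0.008, −0.06 and −0.003. Those of differently numbered libraries correlated at −0.073 to 0.076. Noise of low-count genes could hide a pairing in this check. With the replicate block, 2490 genes were called, 6 in the wider lists (*SMPD4* lost, adjusted p = 0.0533) and 0 transcripts by limma (2430 at an unadjusted p under 0.05). The values of *S1PR1*, at 23 to 40 counts per +Dox library, rest on low counts, as do those of the other receptors and *SPNS2*. Whether more depth would change them was not tested.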
